A study of Homo sapiens with 6 samples.

Results

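HMOX1si2, 1 of 2 siRNAs directed against HMOX1, was compared with a negative control siRNA (siControl) in AsPC-1 cells, a human pancreatic adenocarcinoma line. Every gene that passed edgeR's expression filter entered the comparison, which left 13769 of the 20263 genes in the deposited table. The series holds 6 libraries, 2 each for siControl, HMOX1si2 and the other siRNA, HMOX1si1, and the HMOX1si1 libraries were used here to share the estimate of spread and to test where the siRNAs differ. All cells were unedited AsPC-1 cells in the same serum-containing medium, transfected with the jetPRIME reagent, and the labels set the groups apart by the siRNA alone. Messenger RNA libraries were made from column-purified RNA. The sequences and dose of the siRNAs and the time after transfection are not stated in the sources used here. Because no label tells whether the replicates are separate cultures, the p-values reflect the spread between these samples alone, which may be technical, and all samples come from 1 line.

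Heme oxygenase-1, the product of HMOX1, breaks heme down into biliverdin, carbon monoxide and free iron. Its gene is held down by the heme-binding repressor BACH1 and is switched on by NRF2, the transcription factor of the oxidative stress response, so it is usually read together with the heme, iron and glutathione genes. A siRNA cuts the transcript it matches in full, and its seed, the bases near the 5′ end of its guide strand, can also lower transcripts that match the seed in their 3′ UTR, as a microRNA does.

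The libraries held 36.1 M and 45.1 M counts for siControl and 44.1 M and 43.9 M for HMOX1si2, with 14999 to 15220 genes detected in each library of the series. Replicates of HMOX1si2 differed more than those of the other groups (chi-square over its degrees of freedom 85.2, against 38.5 for siControl and 49.0 for HMOX1si1), and all by more than sampling noise. Transcripts of the mitochondrial genome held 8.38% of the counts in HMOX1si2 replicate 1 and 5.10% in replicate 2, against 6.42% and 7.20% in the siControl libraries. Epithelial markers fit the label: the 15 of them together had 15467 to 16332 CPM (counts scaled to library size, here by the library total) with HMOX1si2 and 15827 to 17524 with siControl, and 1 of the 15, GRHL2, was under 1 CPM. The estimated counts of CLDN4, a claudin among them, swung between replicates, with 635 and 151 CPM in the HMOX1si2 libraries.

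HMOX1 was lower with HMOX1si2 in both libraries. After TMM scaling, the siControl libraries had 9.06 and 8.52 CPM (328 and 378 counts) and the HMOX1si2 libraries 1.27 and 1.17 CPM (55 and 53 counts), so the groups lay far apart. The log2 fold change was −2.85 (SE 0.17, n = 2 a group, edgeR adjusted p = 0.00951), which leaves 13.9% of the control level. With HMOX1si1 the libraries had 2.43 and 2.80 CPM, and the direct test put HMOX1si2 below HMOX1si1 by 1.10 on the log2 scale (edgeR adjusted p = 0.0284). The gene lies on the plus strand at chr22:35380361-35394214 (GRCh38, GENCODE 29). The next line shows the 30 bases of its 3′ UTR, in exon 5 of 5, around the word CCTAATG, in capitals, which the account of 3′ UTRs takes up (chr22:35393868-35393897, plus strand, GENCODE 29 transcript).
HMOX1: cctggaagacacCCTAATGtggcagctgtc

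With HMOX1 counted, 789 of the 13769 genes changed with HMOX1si2 (5.73%), by edgeR's quasi-likelihood test at a Benjamini-Hochberg adjusted p of 0.05. Of these 422 rose (3.06% of genes tested) and 367 fell (2.67%), and 107 rose (0.777%) and 94 fell (0.683%) by at least 2-fold. Most changes were modest. The median absolute log2 fold change was 0.77 among the called genes and 0.25 over all genes, whose log2 fold changes centred on 0.00. With genes split by mean expression into 3 classes of equal size, 4.05% were called in the lowest and 7.30% in the highest class, and the median absolute log2 fold change of the calls was 1.06 and 0.66. The HMOX1si2 and siControl libraries did not overlap for 57.1% of all genes, so the absence of overlap says little by itself. Of the called genes 191 (24.2%) share exons with another gene, against 32.0% of all genes tested.

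**Figure D1:**
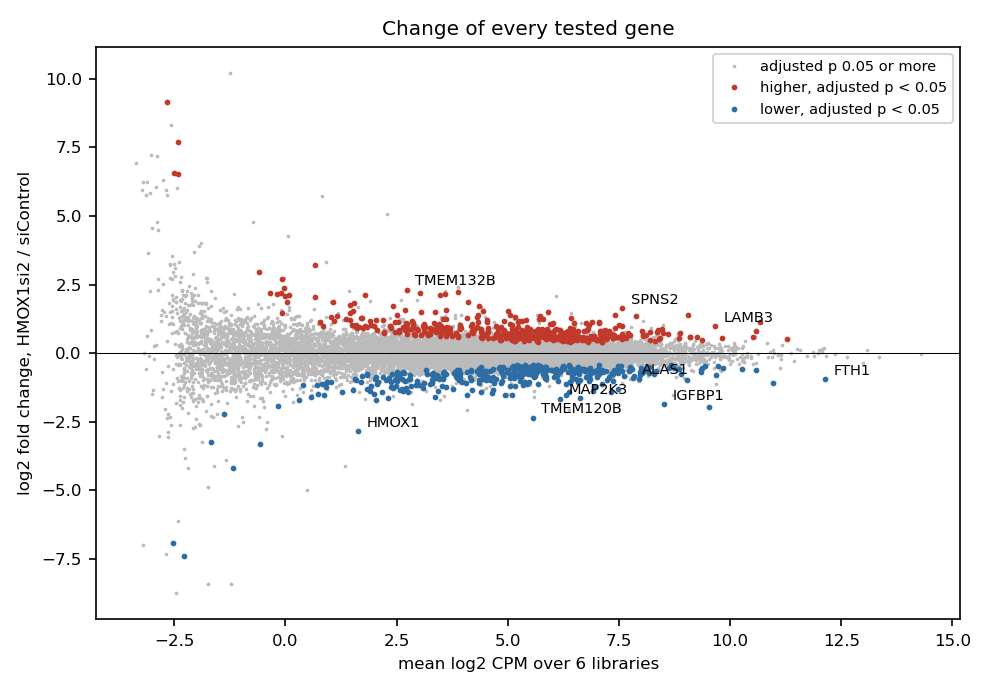
Log2 fold change of each of the 13769 tested genes with HMOX1si2 against siControl, by mean log2 CPM over the 6 libraries. Red points are the 422 genes that rose and blue points the 367 that fell, and the widest scatter is at the left, at the lowest expression.

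The number of calls depends on single libraries. Without siControl replicate 1 or without siControl replicate 2, edgeR called 0 genes, and HMOX1 itself had an adjusted p of 0.0778 and 0.0960. The unadjusted p was under 0.05 for 2968 and 2409 genes in these fits, no other tool was run on them, and every called gene named below lost its call there. Of the 43 called genes that are named for the size of their change, their p or their difference from HMOX1si1, 22 were still called without HMOX1si2 replicate 1, 35 without HMOX1si2 replicate 2, 35 without HMOX1si1 replicate 1 and 35 without HMOX1si1 replicate 2, and the total was 42, 362, 153 and 164 genes. A fit of only the 4 libraries of HMOX1si2 and siControl called 179 genes and DESeq2 called 1890. In the fit of 4 libraries 35 of the 43 genes, and 58 of all 128 named genes with a call, kept it. Calls named from the gene lists alone were thus less stable than those of the 43. No called gene changed sign under any of these.

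Among the transcripts that fell furthest were those of TMEM120B, IGFBP1 and MAP2K3. Genes named for a large change were chosen among those whose libraries do not overlap between the groups. TMEM120B, a transmembrane protein gene on chr12:121712752-121783001, had 98.2 and 87.7 CPM with siControl and 13.1 and 23.5 CPM with HMOX1si2. The groups lay apart, and the log2 fold change was −2.35 (SE 0.27, edgeR adjusted p = 0.0187), but the gene shares an exon with RHOF, so its counts are uncertain. IGFBP1, a secreted binding protein of insulin-like growth factors, fell from 643 and 699 CPM to 173 and 201 CPM (log2 fold change −1.84, SE 0.32, edgeR adjusted p = 0.0365). MAP2K3, the kinase that activates p38, fell from 105 and 113 CPM to 32.3 and 37.1 CPM (−1.65, SE 0.12, edgeR adjusted p = 0.00951). Its gene lies at chr17:21284672-21315240, and 108 and 94.4 CPM with HMOX1si1 left it near the control level there.

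CAPZA1, a subunit of the actin capping protein, had closely matched replicates, with 174 and 176 CPM in the siControl libraries and 67.8 and 65.1 CPM with HMOX1si2, a log2 change of −1.40 with SE 0.09 and an edgeR adjusted p of 0.00951. DERA, an aldolase that breaks down deoxyribose phosphate, fell from 47.1 and 45.2 CPM to 15.2 and 16.7 CPM (−1.53, SE 0.11, edgeR adjusted p = 0.00951). GDF15, a stress-induced cytokine of the TGF-beta family, fell from 134 and 144 CPM to 51.4 and 44.7 CPM (−1.53, SE 0.14, edgeR adjusted p = 0.0134). In each of these genes both HMOX1si2 libraries lay well below both siControl libraries, but no overlap was a condition of the choice. ALDH1A3, which makes retinoic acid from retinal, fell from 3282 and 3093 CPM to 1460 and 1550 CPM (−1.08, SE 0.09, edgeR adjusted p = 0.0103).

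The other large decreases were RPE65, the isomerase of the visual cycle (−1.69), ALPG, a germ-cell alkaline phosphatase (−1.64), ZC3H10 (−1.63), the cytochrome P450 gene CYP4F12 (−1.60), SIVA1, a pro-apoptotic adaptor (−1.53), MRPL9 of the mitochondrial ribosome (−1.52), carbonic anhydrase CA2 (−1.46), heparanase HPSE (−1.43) and the glycogen-binding protein gene STBD1 (−1.42), with edgeR adjusted p between 0.00951 and 0.0388. ENSG00000284292, a readthrough model over ARPC1A, ARPC1B and PDAP1, had a log2 fold change of −1.96, and ZC3H10 shares an exon with ESYT1, MRPL9 with OAZ3 and STBD1 with FAM47E-STBD1, so their counts may be divided between gene models. ALPG has near-identical paralogs.

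**Figure D2:**
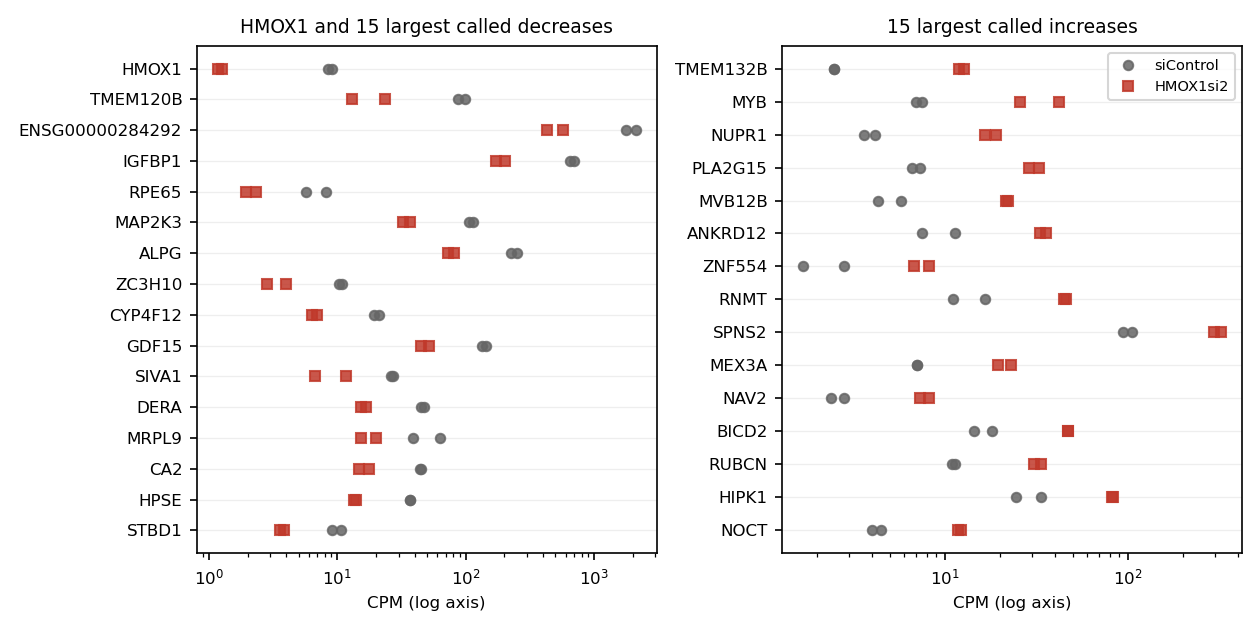
CPM after TMM scaling, on log axes, of HMOX1 and of the 15 genes with the largest called decrease (left) and increase (right) at a mean log2 CPM of at least 2. Each point is 1 library, grey circles for siControl and red squares for HMOX1si2. The 15 genes a side were chosen among those whose 2 groups do not overlap, so their separation is a condition of the choice.

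Among the transcripts that rose furthest were those of TMEM132B, NUPR1 and PLA2G15. TMEM132B, a neuronal transmembrane protein gene on chr12:125186836-125662377, had 2.49 and 2.48 CPM with siControl and 12.1 and 12.8 CPM with HMOX1si2, a log2 change of 2.32 with SE 0.14 and an edgeR adjusted p of 0.00951. NUPR1, a small stress-induced nuclear protein, rose from 3.62 and 4.17 CPM to 19.2 and 16.6 CPM (2.20, SE 0.16, edgeR adjusted p = 0.00951). PLA2G15, a lysosomal phospholipase, rose from 7.30 and 6.602 CPM to 28.8 and 32.7 CPM (2.15, SE 0.14, edgeR adjusted p = 0.00951). In these genes the groups were far apart and the replicates of each were close together, but no overlap was a condition of the choice.

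SPNS2, the exporter of sphingosine 1-phosphate, rose from 94.0 and 106 CPM to 296 and 324 CPM (log2 fold change 1.63, SE 0.11, edgeR adjusted p = 0.00951). MYB, a transcription factor best known from blood progenitors, went from 7.54 and 6.94 CPM to 42.0 and 25.8 CPM, so that the size of its rise differed between the HMOX1si2 libraries (2.23, SE 0.27, edgeR adjusted p = 0.0196). VGLL4, which binds TEAD factors in place of YAP, rose from 36.2 and 36.7 CPM to 84.98 and 89.5 CPM (1.26, SE 0.09, edgeR adjusted p = 0.00951). The spread between replicates was small beside the change for SPNS2 and VGLL4.

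Further large increases were MVB12B of the ESCRT-I complex (2.12), ANKRD12 (1.88), ZNF554 (1.73), RNMT, the methyltransferase of the mRNA cap (1.72), the RNA-binding protein gene MEX3A (1.59), NAV2, a neuron navigator (1.57), the dynein adaptor gene BICD2 (1.54), RUBCN, a brake on autophagy (1.52), the kinase gene HIPK1 (1.502), NOCT (1.501) and the xylosyltransferase gene GXYLT1 (1.33), with edgeR adjusted p between 0.00951 and 0.0370. RNMT shares an exon with FAM210A, RUBCN with FYTTD1, SPNS2 with MYBBP1A and VGLL4 with ATG7, which makes their counts uncertain.

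Gene lists were then read by how many members passed the test and by their median, set beside 3.06% higher, 2.67% lower and a median of 0.00 over all genes tested. Counts of list members at an unadjusted p under 0.05 by edgeR are to be set beside 3560 of all 13769 genes tested. Of the 918 measured genes in the 40 lists, 92 were called (40 higher and 52 lower, 10.0% against 5.73% of all genes), and 31 lists held at least 1 of them. The lists were put together with earlier results of these data known, so these counts describe the lists and are no test of them. Among list members named below, TNFRSF10B, DNAJB9, HSPE1, AIFM2, SLC6A9, MYO1A, VIL1, CCND1, ERBB2, PER3, IFIT2, TNC and THBS1 share exons with another gene of the table, as does CAPZA1, so their counts are uncertain.

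**Figure D3:**
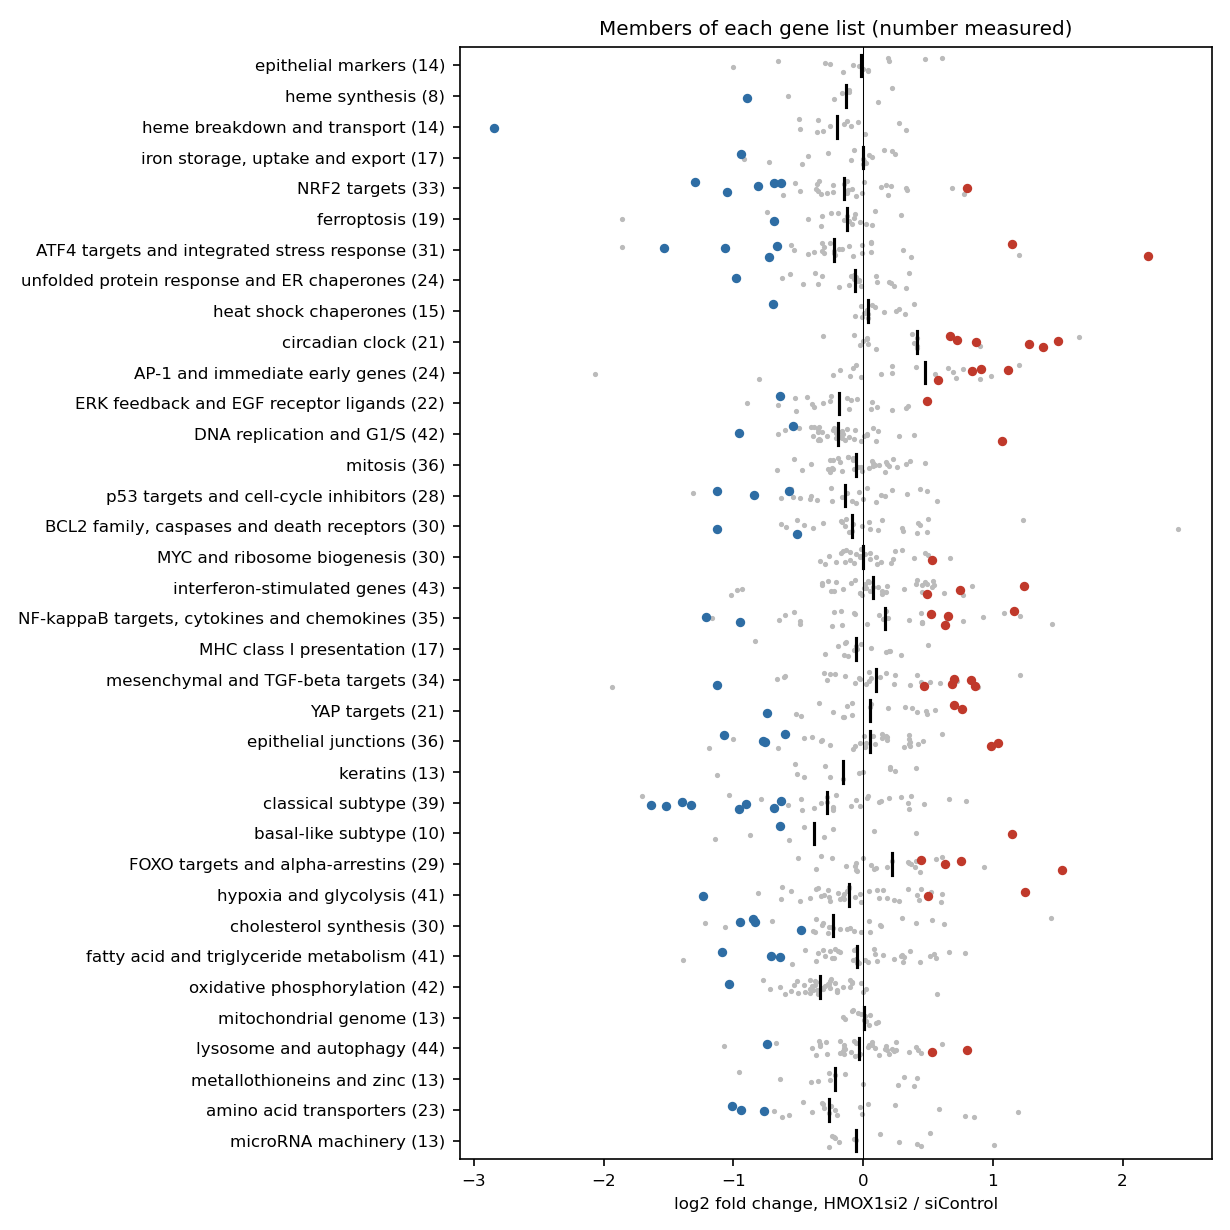
Log2 fold change with HMOX1si2 against siControl of every measured member of each list, apart from the markers of other cell types. Red points are members that rose, blue points members that fell and grey points members that were not called, and the black bars are medians, which run from −0.38 (basal-like subtype) to 0.48 (AP-1 and immediate early genes).

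Around heme and iron, 1 gene was called in each list. ALAS1, which catalyses the committed step of heme synthesis, fell from 337 and 347 CPM to 189 and 179 CPM with HMOX1si2, a log2 change of −0.90 with SE 0.09 and an edgeR adjusted p of 0.0134. It was the only 1 of 8 heme synthesis genes called (median −0.13). In the heme breakdown and transport list HMOX1 alone was called among 14 genes (median −0.20). Of the 14, 11 were below 0 and 3 above, and 7 had an unadjusted p under 0.05 by edgeR. The median of this list was −0.42 in HMOX1si2 replicate 1 and −0.05 in replicate 2. The heme transporter gene SLC48A1 had a log2 fold change of −0.35 (edgeR adjusted p = 0.123). FTH1, the ferritin heavy chain that stores iron, fell from 5664 and 6616 CPM to 3424 and 2965 CPM (−0.94, SE 0.12, edgeR adjusted p = 0.0198). It was the only call among 17 iron genes (median −0.0010), it shares an exon with BEST1, and its many processed copies in the genome make its count uncertain. TFRC, the receptor that takes up transferrin, had a log2 fold change of −0.47 (edgeR adjusted p = 0.0843).

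Among 33 NRF2 targets, 5 fell and 1 rose (median −0.15). The 5 were AKR1C1 (282 and 304 CPM to 108 and 131 CPM, log2 fold change −1.30, SE 0.12, edgeR adjusted p = 0.0134), AKR1C2 (−1.05), AKR1C3 (−0.81), MGST1 (−0.69) and TXNRD1 (−0.63), which reduce ketones, conjugate glutathione or keep thioredoxin reduced. The AKR1C genes are near-identical copies, so reads may be divided between them. SQSTM1, which encodes the autophagy adaptor p62, rose from 1192 and 1227 CPM to 2146 and 2057 CPM (0.80, SE 0.09, edgeR adjusted p = 0.0176) and shares exons with MGAT4B and MRNIP. Of 19 ferroptosis genes, AIFM2, which keeps coenzyme Q reduced, fell (−0.69, edgeR adjusted p = 0.0471), and the list had a median of −0.13.

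Among 31 ATF4 targets and genes of the integrated stress response, which meets amino acid shortage and other stresses, 4 fell and 2 rose (median −0.22). Those that fell were GDF15 and the amino acid synthesis genes PSAT1 (63.0 and 66.8 CPM to 26.0 and 36.1 CPM, −1.06), PSPH (−0.73) and ASNS (−0.66). Those that rose were NUPR1 and PPP1R15A, the phosphatase subunit that ends the response (64.9 and 71.5 CPM to 168 and 135 CPM, 1.15). CHAC1, which degrades glutathione, had a log2 fold change of −1.86 without passing the test (edgeR adjusted p = 0.0595), and the value was −2.50 without HMOX1si2 replicate 1. Of 23 amino acid transporters 3 fell, SLC1A4 (−1.01), SLC6A9 (−0.94) and SLC7A7 (−0.77), and 0 rose (median −0.26). In the unfolded protein response DNAJB9 fell (32.7 and 31.1 CPM to 16.0 and 16.4 CPM, −0.98) as the only call of 24 genes (median −0.06), and among 15 heat shock chaperones HSPE1 fell (−0.69) and the median was 0.04. The adjusted p of these calls lay between 0.00951 and 0.0422 by edgeR.

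The circadian clock list had the highest share of calls among lists with over 20 measured genes. Of its 21 genes 6 rose and 0 fell (median 0.41): NOCT, a phosphatase with a daily rhythm (4.48 and 4.01 CPM to 12.3 and 11.8 CPM, 1.501), CIART (1.38), the repressor NR1D1 (40.8 and 42.1 CPM to 115 and 86.2 CPM, 1.28), the period genes PER2 (0.87) and PER3 (0.67), and TEF (0.72), with edgeR adjusted p between 0.0134 and 0.0365. NR1D1 shares an exon with THRA. Among 24 AP-1 and immediate early genes 4 rose and 0 fell (median 0.48), but the median was 0.58 in HMOX1si2 replicate 1 and 0.13 in replicate 2, so it rests mostly on 1 library. FOSL1 rose from 73.1 and 64.5 CPM to 157 and 141 CPM (1.11, SE 0.15, edgeR adjusted p = 0.0233) and JUN from 26.6 and 28.2 CPM to 50.6 and 47.2 CPM (0.84, SE 0.09, edgeR adjusted p = 0.0177), followed by KLF10 (0.91) and NR4A2 (0.57).

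Calls made up 7.14% of the DNA replication and G1/S list and 0.0% of the mitosis list, against 5.73% of all genes. None of the 36 mitosis genes was called (median −0.05), with 8 at an unadjusted p under 0.05, and of 42 DNA replication and G1/S genes 2 fell and 1 rose (median −0.20), with 14 at an unadjusted p under 0.05 and 33 of 42 below 0. CCND1, cyclin D1, fell from 469 and 436 CPM to 304 and 317 CPM (−0.54, SE 0.09, edgeR adjusted p = 0.0342) and E2F2 fell (−0.96), while CDK6 rose from 41.0 and 34.7 CPM to 83.0 and 76.2 CPM (1.07, SE 0.12, edgeR adjusted p = 0.0177). Of 28 p53 targets and cell-cycle inhibitors 3 fell and 0 rose (median −0.14): TNFRSF10B, a death receptor (183 and 168 CPM to 75.5 and 85.2 CPM, −1.13), TP53INP1 (−0.84) and CDKN2B (−0.57). The survival gene MCL1 fell too (−0.51), and with TNFRSF10B it made 2 calls among 30 BCL2 family, caspase and death receptor genes (median −0.08). BCL2L11 had 20.7 and 28.9 CPM with siControl and 58.3 and 58.4 CPM with HMOX1si2 without passing the test (1.24, edgeR adjusted p = 0.0868). Of 22 genes of ERK feedback and EGF receptor ligands, the receptor gene ERBB2 rose (0.49) and the ligand gene AREG fell (−0.64, median −0.19), and of 30 MYC and ribosome biogenesis genes UBTF rose (0.53, median −0.0009).

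Inflammatory genes moved in both directions. Of 35 NF-kappaB targets, cytokines and chemokines 4 rose and 2 fell (median 0.17). ICAM1, an adhesion molecule (2.35 and 2.30 CPM to 5.90 and 4.53 CPM, 1.17), IL6R (0.66), RELB (0.63) and NFKB2 (0.52) rose, and TNFSF9 (50.05 and 56.6 CPM to 20.5 and 25.6 CPM, −1.21) and IL1RN, the interleukin-1 receptor antagonist (−0.95), fell. Among 43 interferon-stimulated genes RSAD2 (6.19 and 5.68 CPM to 13.3 and 14.7 CPM, 1.24), the RNA sensor gene IFIH1 (0.75) and IFIT2 (0.49) rose and 0 fell (median 0.08), and RSAD2 shares an exon with CMPK2. None of 17 MHC class I genes was called (median −0.05), with 1 at an unadjusted p under 0.05.

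Matrix and adhesion genes changed in both directions. Of 34 mesenchymal genes and TGF-beta targets 5 rose and 1 fell (median 0.10): THBS1, thrombospondin (49.9 and 44.9 CPM to 86.5 and 85.6 CPM, 0.86), TNC, tenascin (0.83), the ligand gene TGFB2 (0.70), LTBP2 (0.69) and PMEPA1 (0.47) rose, and ID1, a BMP target, fell (116 and 135 CPM to 56.0 and 59.1 CPM, −1.12). Of 36 epithelial junction genes 4 fell and 2 rose (median 0.05). LAMB3, a laminin chain gene, rose from 442 and 448 CPM to 869 and 892 CPM (0.99, SE 0.08, edgeR adjusted p = 0.0112). CLDN23 (−1.07), the hemidesmosome collagen COL17A1 (−0.75) and desmocollin DSC2 (−0.60) were among those that fell, and the cadherin CDH3 rose (1.04). Of 21 YAP targets the kinase gene LATS2 (0.76) and TGFB2 rose and NUAK2 fell (−0.74, median 0.05). CDH1, E-cadherin, had a log2 fold change of 0.61 (edgeR adjusted p = 0.0830).

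The classical subtype of pancreatic cancer, defined by gut-like epithelial genes, lost 8 of 39 measured genes and gained 0 (median −0.28): ALPG, BTNL8 (3.81 and 3.97 CPM to 1.59 and 1.13 CPM, −1.52), the annexin ANXA13 (12.2 and 11.96 CPM to 4.66 and 4.51 CPM, −1.40), FGFBP1 (−1.33), the brush-border genes MYO1A (−0.96) and VIL1 (447 and 452 CPM to 278 and 281 CPM, −0.69), lysozyme LYZ (−0.90) and CYP3A5 (−0.63), with edgeR adjusted p up to 0.0403. Of 10 measured basal-like genes TP63 rose (1.15, from about 1 CPM) and AREG fell (median −0.38). None of 13 keratins was called (median −0.16), with 6 at an unadjusted p under 0.05, and KRT19 had 3301 and 3729 CPM with siControl and 2846 and 2881 CPM with HMOX1si2 (edgeR adjusted p = 0.112).

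Among metabolic lists, the calls in sterol and lipid synthesis were all decreases, and those among FOXO targets and alpha-arrestins were all increases. Of 30 cholesterol synthesis genes 4 fell and 0 rose (median −0.24): CYP51A1 (146 and 150 CPM to 66.7 and 86.1 CPM, −0.95), EBP (−0.85), MSMO1 (−0.83) and IDI1 (−0.48). The desaturase gene SCD (354 and 328 CPM to 220 and 196 CPM, −0.71), FADS3 (−1.09) and ACSS2, which makes acetyl-CoA from acetate (−0.64), were the calls among 41 genes of fatty acid and triglyceride metabolism (median −0.05). Of 29 FOXO targets and alpha-arrestins 4 rose and 0 fell (median 0.22): ARRDC4 (1.19 and 1.04 CPM to 3.18 and 3.25 CPM, 1.53), TXNIP, an inhibitor of thioredoxin and glucose uptake (199 and 194 CPM to 322 and 343 CPM, 0.76), MLXIP (0.63) and ARRDC3 (0.45). Of 41 hypoxia and glycolysis genes PFKFB3, which makes the activator of phosphofructokinase (38.2 and 33.7 CPM to 88.1 and 82.4 CPM, 1.25), and PFKL (0.50) rose and the hydroxylase gene EGLN3 fell (−1.23, median −0.11). The adjusted p of these calls lay between 0.0112 and 0.0423 by edgeR.

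The oxidative phosphorylation genes of the nucleus leaned to 1 side with small changes: 40 of 42 had a log2 fold change below 0, against 49.8% of all genes, and the median was −0.33. The HMOX1si2 libraries differed here, with a median of −0.53 in replicate 1 and −0.17 in replicate 2 (SD 0.25). Of these, COX7C alone fell (135 and 164 CPM to 74.8 and 70.7 CPM, −1.04, edgeR adjusted p = 0.0494), and 13 had an unadjusted p under 0.05. The 13 genes of the mitochondrial genome had a median of 0.0041 and none was called, with 0 at an unadjusted p under 0.05 and libraries that overlapped, as MT-CO2 shows with 7912 and 9028 CPM in the siControl libraries and 11603 and 6537 CPM with HMOX1si2. Of 44 lysosome and autophagy genes SQSTM1 and the glucosidase gene GAA (0.53) rose and the galactosidase gene GLA (−0.74) fell (median −0.03). None of 13 metallothionein and zinc genes (median −0.22) and none of 13 microRNA machinery genes (median −0.05) was called, each with 5 at an unadjusted p under 0.05.

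Summed markers of other cell types stayed far below the epithelial sum, although LUM and CD68 alone were well above 1 CPM. Summed fibroblast markers had 88.7 to 100.1 CPM by library total with HMOX1si2 and 128 to 134 CPM with siControl, nearly all of it LUM, and 8 of 12 markers were under 1 CPM. LUM fell (121 and 116 CPM to 73.6 and 82.4 CPM, −0.60, edgeR adjusted p = 0.0317) and ACTA2, which shares an exon with FAS, rose from 2.24 and 2.28 CPM to 5.09 and 3.96 CPM (1.002, edgeR adjusted p = 0.0458). Of 12 blood cell markers CD3E, MS4A1 and HBB were at 0 in every library, and the sum was 137 to 160 CPM with HMOX1si2 and 137 to 155 CPM with siControl, mostly CD68 and LYZ. Endothelial markers summed to 2.56 to 2.69 CPM with HMOX1si2 and 3.48 to 4.40 CPM with siControl, and acinar and endocrine markers to 0.205 to 0.340 and 0.470 to 0.621 CPM. None of the measured epithelial, endothelial or acinar and endocrine markers was called, with 3 of 14, 0 of 3 and 1 of 1 at an unadjusted p under 0.05. Of 7 measured fibroblast markers 2 were called, and of 5 blood cell markers 1, LYZ, which fell (−0.90). The part of other cells in the results was not tested.

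Where a change with HMOX1si2 differed from that with the other siRNA was tested as HMOX1si2 against HMOX1si1 in the same fit. In that test 499 genes differed (3.62% of 13769), 294 higher (2.14%) and 205 lower (1.49%) with HMOX1si2. Of the 789 genes called with HMOX1si2 against siControl, 143 (18.1% of the calls and 1.04% of all genes) also differed from HMOX1si1. For 127 of these the change with HMOX1si1 was smaller in the same direction or was opposite. For 16 it went further in the same direction with HMOX1si1. Since both siRNAs share the siControl libraries, their changes are only set side by side. Without HMOX1si1 replicate 1 or without HMOX1si1 replicate 2, the count of differing genes was 19 and 26, and it was between 150 and 204 without 1 of the other libraries.

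Several of the strongest decreases were far smaller or absent with HMOX1si1. PLBD2, a lysosomal protein gene, had 113 and 105 CPM with siControl, 44.4 and 37.7 CPM with HMOX1si2 and 118 and 139 CPM with HMOX1si1, a difference between the siRNAs of −1.64 (edgeR adjusted p = 0.00761). FAM98A had 36.2 and 33.6, then 14.5 and 12.8, and 34.2 and 36.0 CPM in the same order (difference −1.36, edgeR adjusted p = 0.00761). For MAP2K3 the difference was −1.55 (edgeR adjusted p = 0.00761), for TMEM120B −1.85 (edgeR adjusted p = 0.0229), for DERA −1.28 (edgeR adjusted p = 0.00761) and for CAPZA1 −1.16 (edgeR adjusted p = 0.00696). In FAM98A and MAP2K3 the HMOX1si1 libraries lay around the siControl level, and in PLBD2 both lay above it. Only the HMOX1si2 libraries were low in these genes.

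Among the increases, PLA2G15 had 7.49 and 8.55 CPM with HMOX1si1, near siControl, and differed by 1.94 (edgeR adjusted p = 0.00678). RNMT had 12.8 and 15.2 CPM with HMOX1si1 against 45.1 and 46.2 CPM with HMOX1si2 (difference 1.71, edgeR adjusted p = 0.0176). TMPRSS2, a membrane protease gene, had 54.7 and 54.8 CPM with siControl, 87.7 and 92.0 CPM with HMOX1si2 and 25.5 and 24.9 CPM with HMOX1si1 (difference 1.83, edgeR adjusted p = 0.00581), so the siRNAs moved it to opposite sides. WNT11, a signalling ligand, LDLRAD1 and CYP24A1, which breaks down vitamin D, differed by 1.86, 1.79 and 1.78 (edgeR adjusted p = 0.0129, 0.0102 and 0.0129).

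All 6 junction genes that were called with HMOX1si2 also differed between the siRNAs, against 143 of all 789 calls (18.1%). Of the 6, 2 rose and 4 fell, and their list was put together with earlier results of these data known. COL17A1 had 474 and 420 CPM with siControl, 272 and 258 CPM with HMOX1si2 and 872 and 940 CPM with HMOX1si1 (difference −1.77, edgeR adjusted p = 0.00581). LAMB3 was higher still with HMOX1si1, at 1362 and 1362 CPM (difference −0.63, edgeR adjusted p = 0.0178). ALAS1, by contrast, had 180 and 190 CPM with HMOX1si1 and 189 and 179 CPM with HMOX1si2, and the difference was −0.01 (SE 0.09, edgeR adjusted p = 0.974). ALDH1A3 differed by −0.15 (edgeR adjusted p = 0.379) and IL6R by 0.03 (edgeR adjusted p = 0.861).

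**Figure D4:**
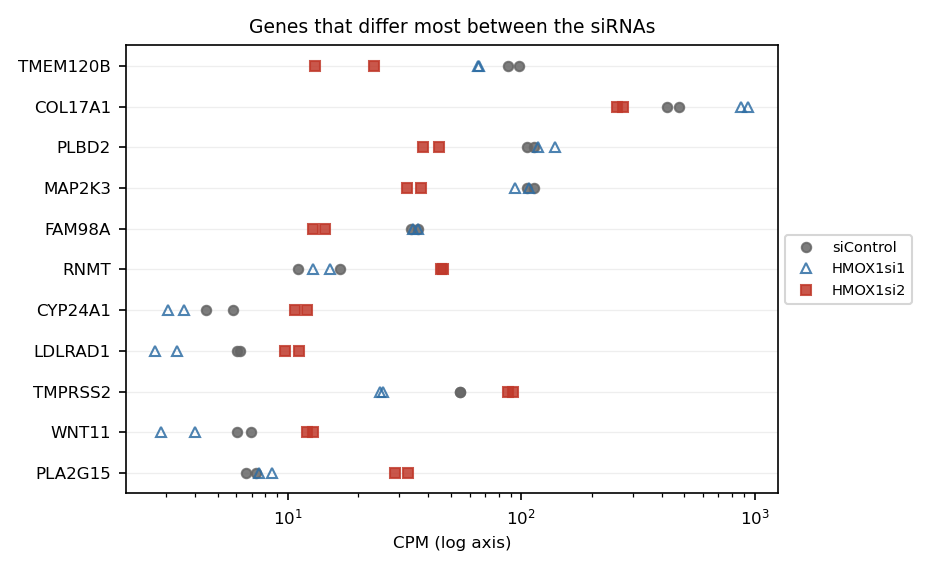
CPM after TMM scaling, on a log axis, of the genes called with HMOX1si2 that differed most from HMOX1si1, 6 higher and 5 lower with HMOX1si2. Grey circles are siControl libraries, open blue triangles HMOX1si1 and red squares HMOX1si2. The HMOX1si1 triangles of COL17A1, TMPRSS2, LDLRAD1, CYP24A1, WNT11 and, less far, PLBD2 lie on the other side of the siControl circles from the squares.

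Words of 7 bases in 3′ UTRs were described next, because seed matches there can lower transcripts. The word CCTAATG had been picked out in an earlier look at these data for its tie to the difference between the siRNAs, so the shares that follow describe it and test nothing. It occurs in the longest annotated 3′ UTR of 979 of the 10800 genes searched (mean log2 CPM 2 or more). The 3′ UTR of HMOX1 holds it too. Of the 979 genes 72 fell with HMOX1si2 (7.35%), against 262 of 9821 without the word (2.67%) and 3.09% over all 10800, and the shares that rose were 2.45% and 3.62%, with 3.52% over all. The median log2 fold changes were −0.06 with the word and 0.00 without. With HMOX1si1, 3.78% of genes with the word fell and 5.66% of those without it.

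Genes with the word have longer 3′ UTRs, with a median of 3277 bases against 1543. With 3′ UTRs split by length into 3 classes of equal size, from short to long, 5.95%, 10.1% and 6.38% of genes with the word fell, against 3.04%, 2.67% and 2.22% of those without it. Of other words picked in the same look, TCGGAGA went with genes that rose (13.7% of 329 genes, against 3.20% without it), as did CGGAGAA, which overlaps it in 6 bases (8.88% against 3.30%), and GATGACT showed 3.86% against 2.99% of genes lower. The median log2 fold change of genes with TCGGAGA was 0.148 with HMOX1si2 and 0.146 with HMOX1si1, and for CGGAGAA 0.116 and 0.111. With HMOX1si1, 8.81% of genes with GATGACT fell and 5.04% of those without it. Words were searched on the transcript strand only.

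**Figure D5:**
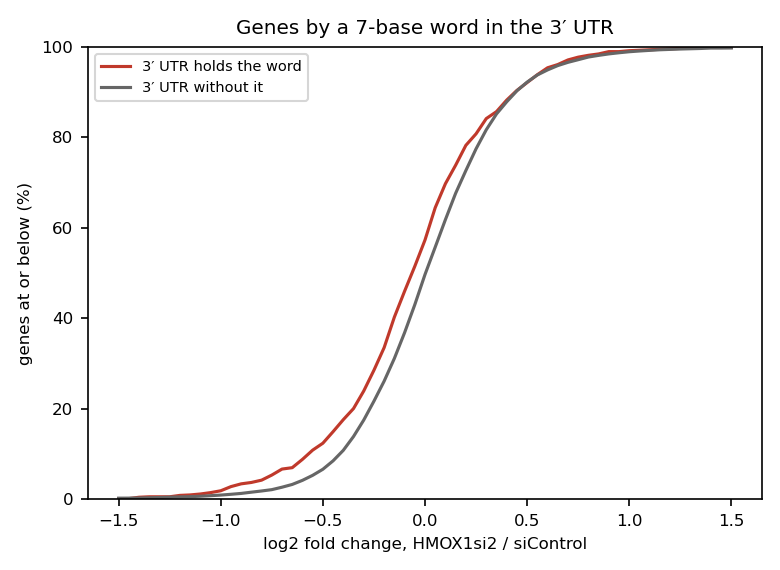
Share of genes at or below each log2 fold change with HMOX1si2 against siControl, for the 979 genes whose 3′ UTR holds CCTAATG (red) and the 9821 without it (grey). At a log2 fold change of −0.5 the red curve is at 12.4% and the grey one at 6.598%, at 0 they are at 57.3% and 49.7%, and at 0.5 they are at 92.1% and 92.2%.

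The lines below show that word, in capitals, within 30 bases of 3′ UTR from GENCODE 29 transcripts (GRCh38) of genes that fell with HMOX1si2 and differed from HMOX1si1, so that what surrounds it can be compared. Shown are CAPZA1 (chr1:112670413-112670442, plus strand, exon 10 of 10), the 2 sites of STBD1 (chr4:76310582-76310611 and chr4:76310689-76310718, plus strand, exon 2 of 2), DNAJB9 (chr7:108573698-108573727, plus strand, exon 3 of 3), DSC2 (chr18:31067650-31067679, minus strand, exon 16 of 16) and CDKN2B (chr9:22003363-22003392, minus strand, exon 2 of 2).
CAPZA1: agagtgatctatCCTAATGacattttactg
STBD1, first site: gttctaagactgCCTAATGctttttgtttg
STBD1, other site: agaaacaaagggCCTAATGagaaccaatca
DNAJB9: aaattgtgtgaaCCTAATGatttttgcagt
DSC2: tttgaagcacaaCCTAATGgaaaattgtag
CDKN2B: tgtggaatctttCCTAATGacaacctgata
The log2 fold changes of these genes with HMOX1si2 were −1.40, −1.42, −0.98, −0.60 and −0.57, and with HMOX1si1 −0.23, −0.29, −0.19, 0.73 and 0.14. BTNL8 holds the word too (chr5:180950859-180950888, exon 8 of 8), and it fell with both siRNAs (−1.52 and −1.88). The word is also in PSAT1, SLC1A4, E2F2 and SCD, which fell with HMOX1si2 and had log2 fold changes of −0.78, −0.74, −0.62 and −0.45 with HMOX1si1. Among the called genes named for the size of their change or of their difference from HMOX1si1, 3 of the 21 reported here that fell hold the word (HMOX1, CAPZA1 and STBD1) and 0 of the 21 that rose. Over all 10800 genes searched 979 hold it, and HMOX1 is the gene that the siRNA is directed against. These counts are too small to tell the named genes from that share. The annotated 3′ UTRs of MAP2K3, DERA, PLBD2 and FAM98A do not hold it.

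Promoters from RefSeq (GRCh38.p14, 250 bases before to 50 after the start, both strands) were read for motifs of the lists that moved. The E-box CACGTG, which the clock factors CLOCK and BMAL bind, was in 2 of the 6 clock genes that rose, in 5 of the 20 measured clock genes with a promoter and in 7.26% of 35116 promoters. CIART holds it 3 times and TEF once (chr22:41367250-41367279), and the next lines show 1 site of each with the motif in capitals, the one in CIART at chr1:150282415-150282444, both on the plus strand.
CIART: taactagagtCACGTGttaccggcgacaca
TEF: gcgacagctcCACGTGctgcagctggcgca
The antioxidant response element, searched as TGACNNNGC, was in 1 of the 6 called NRF2 targets, TXNRD1, in 7 of 25 measured ones and in 13.3% of promoters. A response element of C/EBP and ATF factors, searched as TGATGNAAN, was in 1 of 4 called ATF4 list genes with a promoter, ASNS, in 6 of 23 measured ones and in 3.61% of promoters. These are matches of letters in a short window and no evidence of binding.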

How the data were processed

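Estimated counts per gene were deposited by the authors for 6 libraries. No label states the unit, which was inferred from the values: all are whole, and even numbers make up 71.9% of the values 1 to 10 but 49.9% of values above 100, so how reads were counted, and whether by strand, is not settled. Per the submitters' processing notes the builds were GRCm38 and mm10, although the identifiers are human. The sources used here name no aligner or counter. Expected counts were rounded, which changed nothing, and no column was unused (0). Genes were matched to GENCODE 29 (20224 of 20263) for coordinates and 3′ UTRs, and 20148 to a symbol.

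Analysis used R 4.3.3 and edgeR 4.0.16 (filterByExpr, TMM, glmQLFit and glmQLFTest, 1 mean per group over 6 libraries, Benjamini-Hochberg threshold 0.05), with limma 3.58.1 and DESeq2 1.42.0 as alternatives. Only the edgeR fit was run on simulated data. The standard error is the absolute log2 fold change over the square root of F. The fit had a common biological coefficient of variation of 0.165 and 3.11 prior degrees of freedom. log2 CPM used a prior count of 2.

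Named genes were HMOX1, the 15 largest changes and the 5 smallest p in each direction (called, mean log2 CPM of at least 2, no overlap of libraries), the 6 largest differences from HMOX1si1 in each direction under the same conditions, and per list up to 4 members with the smallest p plus further called members. The gene lists, words and members were chosen with earlier results of these data known. Alternatives were other scalings, filters, tools, libraries left out and a replicate term. A called gene that these rules select is not reported here, although it stays in the fits and the counts over genes and lists.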

Additional observations from a re-analysis of the deposited data

Results flagged for a closer look

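At a mean log2 CPM of at least 2, the siRNAs moved 10 genes reported here to opposite sides of siControl, with both changes called. The test of HMOX1si2 against HMOX1si1 in the same fit was called as well (edgeR adjusted p from 0.00581 to 0.0129). The 10 are among the 143 genes (1.04% of 13769) called with HMOX1si2 both against siControl and against HMOX1si1. Higher with HMOX1si2 were WNT11, with a log2 difference of 1.86, TMPRSS2 (1.83), LDLRAD1 (1.79), the clock gene TEF (1.496), the transcription factor gene BCL11B (1.199) and GM2A, a lysosomal activator protein gene (0.90). Lower with HMOX1si2 were the hemidesmosome collagen gene COL17A1 (−1.77), the desmocollin gene DSC2 (−1.33), PRDM4 (−1.08) and ITPRID2 (−1.06). Both siRNAs lowered HMOX1 itself. PRDM4, GM2A, BCL11B and ITPRID2 were singled out after their values were seen.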

How the results depend on the processing

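Counts are given here as all calls, then higher, lower, higher by at least 2-fold and lower by at least 2-fold, with HMOX1si2 against siControl. Leaving out each library in turn gave 0 to 362 calls (0 to 195, 0 to 167, 0 to 93 and 0 to 97), 0 to 58 called list members and 19 to 204 genes that differ from HMOX1si1. The lowest values came without either siControl library for the former and without HMOX1si1 replicate 1 for the last. The log2 fold change of HMOX1 stayed between −2.90 and −2.79 and lost its call without either siControl library (−2.81 and −2.89).

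DESeq2 called 1890 genes (981 higher and 909 lower) and 1411 differences. glmTreat against a 1.2-fold change called 200 (110, 90, 62 and 54) and 258 differences, and the 4 libraries of HMOX1si2 and siControl alone gave 179 (92, 87, 57 and 59) with 31 list members.

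With a replicate block for the numbers in the titles edgeR called 45 genes (22, 23, 21 and 23), 87 differences and 11 list members. Same-numbered libraries of siControl and HMOX1si2 had deviations that correlated at 0.027, so the numbers are not shown to pair samples. The correlation was −0.15 between HMOX1si1 and HMOX1si2, and a replicate block with the HMOX1si1 numbers crossed, an alternative chosen after seeing the data, gave 1409 calls (741 higher and 668 lower).

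RLE scaling, library totals, limma voom and both other filters kept the total between 719 and 850. With library totals as scaling the lower calls were 275 and 61.8% of calls were higher, against 53.5%. Of the list medians 48 of 240 moved by more than the SD between the HMOX1si2 libraries when 1 library was left out, and 6 of 160 under other settings. Named genes lost their call in 545 of 1200 cases with 1 library left out and in 251 of 1788 under other settings, and no called gene changed sign. The 1200 and 1788 cases include named genes without a call in the main fit, which had none to lose. Only 128 named genes were called there, so the share of calls lost is higher than these counts show. No alternative varied the depth, so what it limits was not tested.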
